A study of Homo sapiens with 131 samples.

Results

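The genes described here are the zinc finger genes of human chromosome 19 whose symbol is ZNF followed by a number and at most 1 letter. Of 45404 genes with a DNA copy state in the deposited tables, 259 met this rule, and chromosome 19 held 2482 other genes with a state. DNA and RNA had been sequenced from the same single cells of HAP1, a near-haploid human line derived from a chronic myeloid leukaemia line, sorted in the middle of S phase and left untreated. The labels listed 63 mid-S cells, each with a DNA and an RNA library, the tables held 56 of them, and 55 had a replication score (the share of 40-kb bins already duplicated) between 40 and 70%. After lysis the DNA was held on magnetic beads and the RNA was taken from the liquid, which limits what nuclear RNA is seen. All cells came from 1 experiment on 1 line, so that the spread given below is a spread between cells. The 5 labelled G1 DNA libraries were not used here.

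Zinc finger proteins of this kind carry a row of C2H2 fingers, each a small fold that holds a zinc ion and contacts a few bases of DNA. Many also carry a KRAB domain, which binds the corepressor TRIM28 and through it the methyltransferase SETDB1, HP1 proteins and DNA methyltransferases, and many of them silence transposable elements. The genes arose by repeated local duplication, so that chromosome 19 carries them in dense clusters of close relatives.

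In haploid cells the copy number of a gene reads out directly whether it has been replicated. A gene was at 1 copy before its duplication and at 2 copies after it, and the share of cells with a call in which it stood at 2 copies served as its replication timing. Genes above 77.8% were called early-S, genes at or below 22.2% late-S and the rest mid-S, which are the limits of 9 equal parts of the scale. A call was present in all 55 cells for 152 of the 259 genes and in at least 44 cells for each of them.

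Of the 259 genes, 241 had a coding sequence in the reference annotation and 18 had none. A match to the KRAB A box pattern was found in 199 of the 241 coding genes. ZNF729 had the most fingers, 39, followed by ZNF208 with 36 and ZNF91 with 32. The unmatched 42 may still hold the domain, since the search was by a short pattern alone.

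The 250 bases before the RefSeq start of 4 genes (GRCh38.p14) are given because 2 pairs of neighbours or relatives carry the results on levels and on copy state below. Capitals mark the dinucleotide CG.
ZNF91, chr19:23395472-23395721, minus strand: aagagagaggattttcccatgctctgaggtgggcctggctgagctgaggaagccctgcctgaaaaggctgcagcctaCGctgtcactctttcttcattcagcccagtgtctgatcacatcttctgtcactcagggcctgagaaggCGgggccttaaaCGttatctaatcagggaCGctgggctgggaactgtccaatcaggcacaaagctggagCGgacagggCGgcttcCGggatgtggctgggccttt
ZNF208, chr19:22010944-22011193, minus strand: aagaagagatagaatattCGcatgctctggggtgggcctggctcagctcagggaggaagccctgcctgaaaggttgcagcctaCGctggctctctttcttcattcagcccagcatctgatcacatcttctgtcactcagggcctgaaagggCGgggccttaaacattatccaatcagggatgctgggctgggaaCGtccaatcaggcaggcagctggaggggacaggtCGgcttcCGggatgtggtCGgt
ZNF549, chr19:57527106-57527355, plus strand: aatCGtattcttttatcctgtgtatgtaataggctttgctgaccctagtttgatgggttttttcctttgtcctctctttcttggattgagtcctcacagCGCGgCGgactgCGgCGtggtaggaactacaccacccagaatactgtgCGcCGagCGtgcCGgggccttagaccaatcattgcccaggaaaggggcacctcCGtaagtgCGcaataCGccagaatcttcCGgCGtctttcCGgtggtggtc
ZNF550, chr19:57559864-57560113, minus strand: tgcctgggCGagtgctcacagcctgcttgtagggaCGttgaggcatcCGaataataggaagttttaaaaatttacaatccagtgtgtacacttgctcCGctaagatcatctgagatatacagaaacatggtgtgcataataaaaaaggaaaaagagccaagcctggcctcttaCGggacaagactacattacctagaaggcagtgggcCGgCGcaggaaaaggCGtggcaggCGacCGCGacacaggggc
The ZNF91 and ZNF208 stretches were identical at 222 of 257 aligned positions (86.4%), and each held 7 CG dinucleotides. ZNF549 held 16 and ZNF550 held 11. Over the 212 members with such an entry the median was 16, against 11 over 35116 promoters of the same length. The latter lacked those of a whole chromosome and, unlike the members, were not cut to a single entry per gene.

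The zinc finger genes replicated late for their chromosome. Their median share of 2-copy cells was 41.7%, against 92.5% for the other genes of chromosome 19, 81.8% for the 229 genes of the same name pattern on other chromosomes and 81.8% for all genes. Late-S genes made up 44% of the members, 16.4% of the other genes of chromosome 19, 17.9% of the zinc finger genes elsewhere and 18.9% of all genes. Early-S and mid-S members numbered 72 and 73, and the rest were late-S.

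The same was seen cell by cell. In each of the 55 cells a smaller share of the members than of the other genes of chromosome 19 was at 2 copies, 44.5% ± 11.4 against 72.6% ± 5.29 (SD, n = 55 cells). The difference was 28.1 ± 8.64 percentage points (SD) and ran from 2.47 to 48.2. The members were also below the zinc finger genes of other chromosomes in 54 of 55 cells and below all genes in 54 of 55. The share of members at 2 copies rose with the replication score of the cell (Pearson's r = 0.543, Spearman's rho = 0.501 over 55 cells), both measures being taken from the same DNA libraries. The cells numbered up to 65 and those above, 28 and 27 cells, gave differences of 29.2 ± 8.30 and 27.0 ± 8.99 points.

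**Figure D1:**
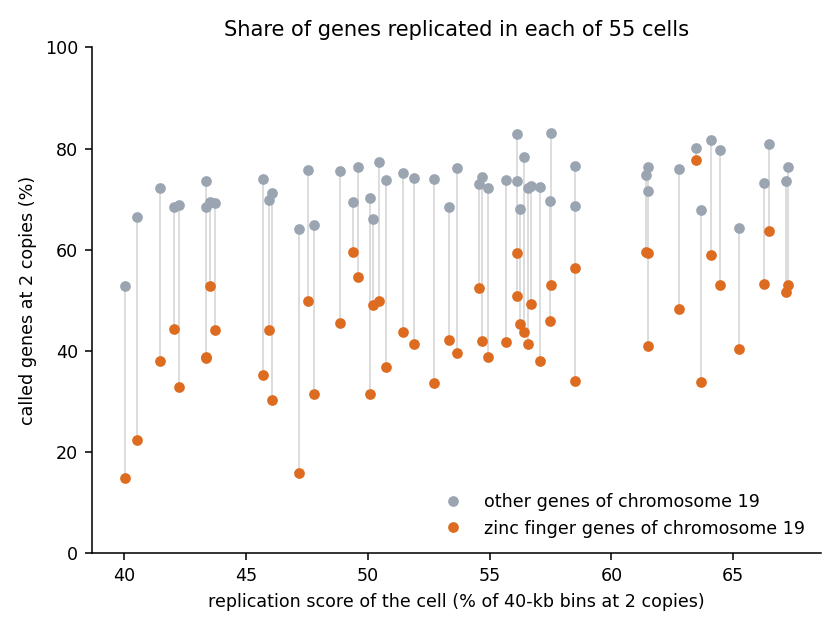
Share of called genes at 2 copies in each of 55 cells (y axis, %) against the replication score of the cell (x axis, %), with the zinc finger genes of chromosome 19 in orange, its other genes in grey and a line joining the values of a cell. The orange point lies under the grey one in 55 of 55 cells.

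The low share went in part with position. Starting a new cluster wherever 2 neighbouring members lay over 1 Mb apart gave 17 clusters, 9 of which held at least 5 members and together 247 of the 259. The 697 other genes that lay inside the limits of these clusters had a median of 56.4% and 41.0% of them were late-S, whereas the 1785 other genes of the chromosome outside the limits had a median of 94.5% and 6.72% late-S. In some clusters the members were later than the other genes inside. The medians were 70.4 against 96.3% from ZNF575 to ZNF296, 50.5 against 70.9% from ZNF557 to ZNF846 and 77.3 against 87.3% from ZNF653 to ZNF791. They were close from ZNF565 to ZNF573 (15.5 against 16.4%) and from ZNF628 to ZNF446 (47.2 against 50%). From ZNF175 to ZNF331 the members stood higher (7.27 against 5.45%). The clusters differed widely from each other, and several had a gradient within.

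Toward the start of the chromosome, the 5 genes from ZNF554 to ZNF77 (2819868 to 2944971) stood between 94.5% and 96.4%, and all 5 were at 2 copies in 52 of 55 cells. The 16 genes from ZNF557 to ZNF846 (7069703 to 9793180) formed a valley, which fell from 92.3% at ZNF414 to 22.0% at ZNF317 and climbed back through 61.8% at ZNF121 to 84.9% at ZNF846. The 28 genes from ZNF653 to ZNF791 (11483427 to 12640098) replicated earlier, with a median of 77.3%, a lowest value of 56.4% at ZNF69 and none late-S.

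The 38 genes from ZNF101 to ZNF254 (19668796 to 24129968), next to the centromere, held the latest members. Timing fell gene by gene from 96.2% at ZNF101 to 56.4% at ZNF93 and 48.1% at ZNF682, then reached 29.1% at ZNF90. From there on nearly every gene was unreplicated in nearly every cell, and 30 of the 38 were late-S. The 145 other genes inside the same limits had a median of 3.64%, against 2.74% for the members.

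Of the 18 members that were at 2 copies in no cell, 16 lay in this cluster, among them ZNF43, ZNF208, ZNF254, ZNF431 and ZNF738. For ZNF208 the state was 1 copy in all 53 cells with a call, which allows a share of up to 6.76% (Wilson 95% interval). ZNF91 was at 2 copies in 2 of 55 cells (3.64%, 1.00 to 12.3%). The other two members without a 2-copy cell were ZNF577 and ZNF649 in the cluster that ends at ZNF331.

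The steepest step among neighbours lay at the border of the 26 genes from ZNF565 to ZNF573 (36182276 to 37817300). ZNF565 was at 2 copies in 97.7% of its 44 called cells and the next member, ZNF566, 199 kb away, in 16.4%. The share then fell to 7.27% at ZNF420 and rose again to 61.8% at ZNF573. The 25 genes from ZNF575 to ZNF296 (43525497 to 45076587) made a shallow valley, from 78.2% at ZNF428 to 58.2% at ZNF224 and 94.5% at ZNF180, with no late-S member.

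The 43 genes from ZNF175 to ZNF331 (51571283 to 53580269) were all late-S, the only cluster of 5 or more of which this held. Their highest value was 18.2%, at ZNF331 at the far edge. In 35 of 55 cells every called member of this cluster was at 1 copy, in 20 cells the cluster was mixed and in no cell was it wholly at 2 copies. The 77 other genes inside had a median of 5.45%.

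The last and largest cluster, 60 genes from ZNF628 to ZNF446 (55476617 to 58481230), ran through the whole range within 3.00 Mb. The first 7 genes stood at 96.3% or more, the share dropped to 3.70% at ZNF71, and it then climbed through 16.4% at ZNF460, 21.8% at ZNF549 and ZNF550, 48.1% at ZNF587 and 87% at ZNF274 to 100% at ZNF446. The cluster held 18 early-S, 18 mid-S and 24 late-S members, and in each of the 55 cells it was mixed. ZNF333, ZNF302, ZNF574, ZNF296, ZNF541 and ZNF446 were among the 17 members at 2 copies in every cell with a call.

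**Figure D2:**
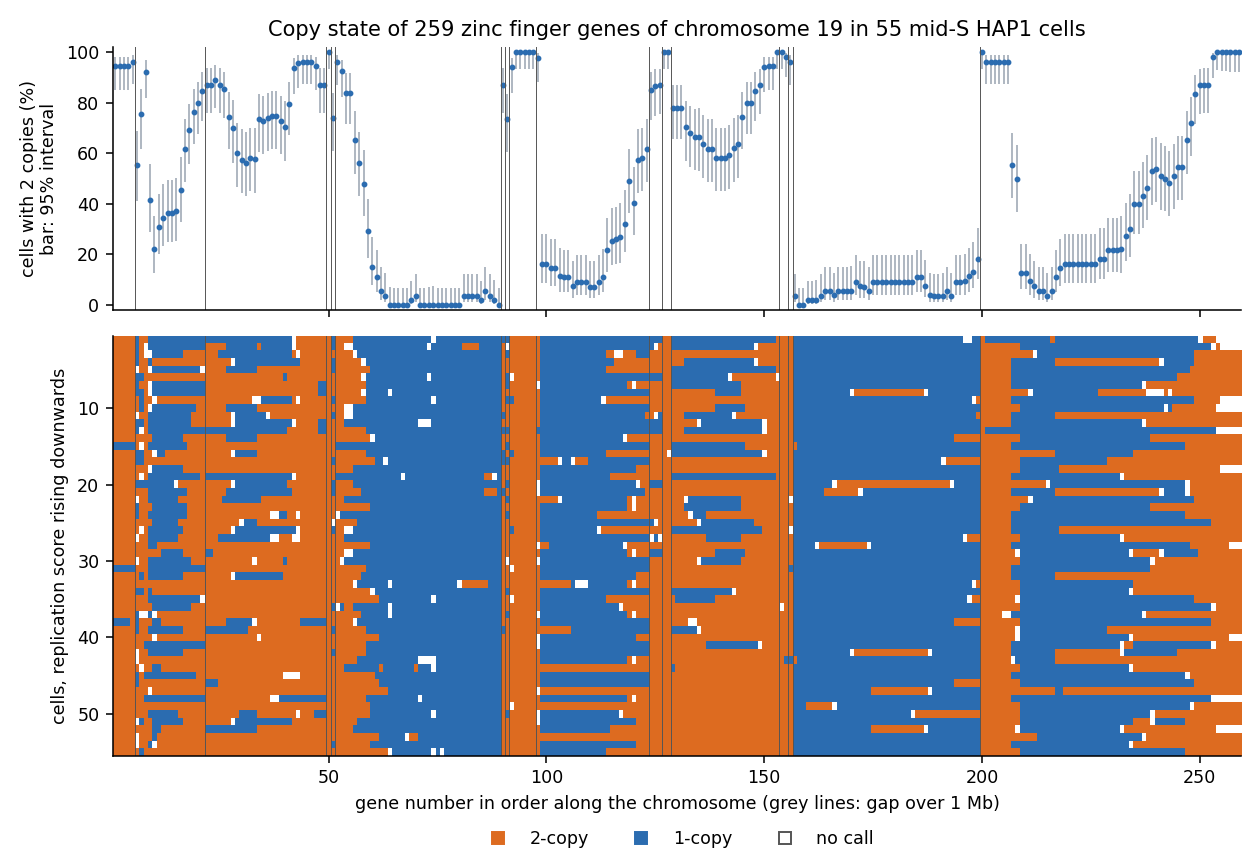
Top, share of 55 cells with 2 copies for each of the 259 genes (points, %) with its Wilson 95% interval (bars); bottom, state of each gene (column, in order along the chromosome) in each cell (row, score rising downwards), orange 2-copy, blue 1-copy, white no call. The genes numbered 157 to 199 on the x axis, from ZNF175 to ZNF331, were all blue in 35 of 55 cells. The cluster from ZNF628 to ZNF446 held both states in each of the 55 cells.

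Some pairs of clusters kept their order in every cell, although neighbouring states come from the same bins or domains and are not separate measurements. The genes from ZNF653 to ZNF791 had a higher share at 2 copies than those from ZNF101 to ZNF254 in 55 of 55 cells. The genes from ZNF575 to ZNF296 were above those from ZNF175 to ZNF331 in 55 of 55 cells as well. The 2 clusters around ZNF420 and ZNF91 were not ordered, with the first higher in 30 cells and the second in 25. Likewise the cluster from ZNF653 was above that from ZNF575 in 24 cells, below it in 14 and equal in 17.

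Genes with a KRAB A box match replicated later than the coding genes without one. The 199 matched genes had a median of 26.9% with 48.7% late-S, and the 42 coding genes without a match had a median of 84.4% with 19% late-S. The 18 members without a coding sequence had a median of 35.1% with 50% late-S. Among the coding late-S, mid-S and early-S members 92.4, 87.1 and 62.1% had the match. The median number of fingers hardly moved, at 13, 11.5 and 12 in these classes, and the median count of CG in the promoter was 16, 13 and 19. Genes of 1 cluster share both ancestry and timing, so these are counts over related genes and carry no test.

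RNA was read from the same cells as spliced RNA, in TPM, and as unspliced RNA, an estimated count of reads in the gene body outside exons. A gene was called expressed when its value was above 0 in over 50% of cells. The unspliced total of a library ran from 425181 to 1353931 with a median of 649250, and 12775 to 17650 genes had spliced RNA per cell. A value of 0 in 1 cell can be a molecule that was missed, and reads between close relatives can be misassigned.

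Spliced RNA was found for 154 of the 259 members (59.5%), against 28.7% of the other genes of chromosome 19, 65.5% of the zinc finger genes elsewhere and 22.8% of all genes. The other genes of the chromosome and all genes include non-coding RNAs and pseudogenes, whereas 241 of the 259 members had a coding sequence. Among the 18 members without one, 2 (11.1%) were expressed. The shares are therefore not over like kinds of genes. The levels were low, with a median over the expressed members of 7.60 TPM against 22.8 TPM over all expressed genes. In all, 7 members were listed at 0 in every cell, among them the pseudogene ZNF861P, which was alone in its cluster. Unspliced RNA passed the same limit for 97 members (37.5%, against 23.9% of all genes).

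Late replication did not go with a low share of expressed members. The expressed share was 54.2% among early-S, 60.3% among mid-S and 62.3% among late-S members (39, 44 and 71 genes), while over all genes it fell from 30.3 through 17.3 to 9.38%. All genes mix coding and non-coding genes, and the mix in each class was not examined. Zinc finger genes of other chromosomes went from 75.8 through 68.8 to 29.3%, and the other genes inside the limits of the clusters from 23.9 through 17.3 to 8.04%. Median levels of the expressed members were 8.35, 8.42 and 7.36 TPM from early-S to late-S, against 25.5, 20.1 and 12.3 TPM over all genes. Across the 154 expressed members, timing and log2(mean TPM + 1) had r = 0.038 and rho = 0.046, a description over genes that are not independent of each other. At the ends of the range, 8 of the 18 members without a 2-copy cell and 10 of the 17 always at 2 copies were expressed.

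**Figure D3:**
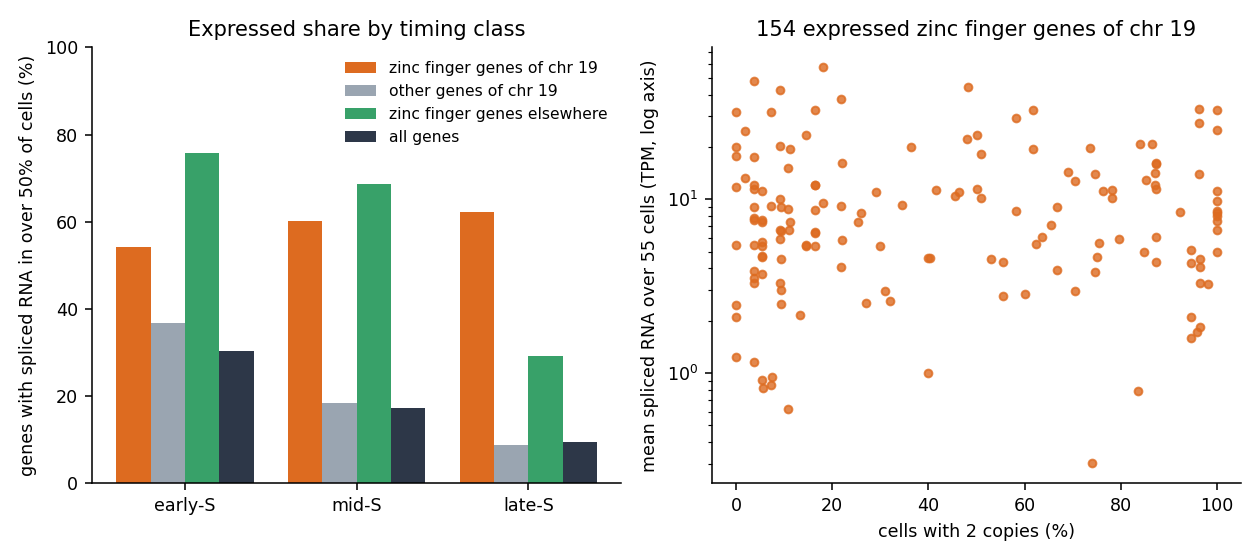
Left, share of genes with spliced RNA in over 50% of cells (y axis, %) by timing class for 4 groups of genes; right, mean spliced RNA over 55 cells (TPM, log axis) against the share of cells with 2 copies (%) for 154 expressed members. The orange bars stay between 54.2 and 62.3% while those of all genes fall to 9.38%.

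Of the 10 members with the most spliced RNA, 6 were late-S. ZNF331, an imprinted gene, led with a lowest, median and highest value of 9.47, 49.7 and 150 TPM over 55 cells (mean 57.5 ± 35.9, SD). ZNF91, which silences SVA retrotransposons, had 0, 44.9 and 112.5 TPM (mean 47.7 ± 25.7) and was above 0 in 54 cells. Each of these genes was at 1 copy in most cells and was nevertheless detected in nearly all of them.

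ZNF587, which with its neighbour ZNF417 acts on endogenous retroviruses of primates, had a mean of 44.4 ± 37.2 TPM and was mid-S. ZNF83 followed with 42.4 ± 29.8 TPM and ZNF875 with 37.9 ± 37.2 TPM, both late-S. The means of the next 5 genes, ZNF581, ZNF302, ZNF460, ZNF121 and ZNF420, lay between 31.6 and 32.8 TPM, closer to each other than their SDs of 19.6 to 37.0. Differences between neighbours in this order were not tested.

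Relatives in the same late domain stood far apart in level. ZNF208 had a mean of 1.584 ± 4.201 TPM with a median of 0, and ZNF43 one of 0.58 ± 1.71 TPM, whereas ZNF91 in the same cluster had 47.7 TPM. ZNF738, ZNF726 and ZNF431 in the same cluster had 31.6 ± 23.8, 24.8 ± 29.1 and 20.0 ± 23.3 TPM. ZNF93, which silences LINE-1 elements, was mid-S at 56.4% and had only 0.32 ± 0.82 TPM, with a value above 0 in 11 of 55 cells.

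Other members with a known role were in between. ZNF224, a repressor of the aldolase A gene, had 29.3 ± 25.8 TPM. ZNF274, which brings SETDB1 to zinc finger genes themselves, had 14.1 ± 15.7 TPM and was early-S at 87%. ZNF473, a factor in the processing of histone messengers, had 6.89 ± 10.6 TPM with a median of 0. The SDs of these 3 genes were near their means or above them.

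ZNF160 (7.56 ± 10.1 TPM), ZNF461 (7.36 ± 14.5) and ZNF382 (5.47 ± 8.61) were late-S, as was ZNF264 with 0.62 ± 0.76 TPM. ZNF544 (11.4 ± 16.4 TPM), ZNF44 (5.88 ± 7.08) and ZNF180 (5.11 ± 7.03) were early-S and ZNF136 (2.98 ± 4.96) was mid-S. The highest members of the remaining clusters were ZNF333 (25.1 TPM), ZNF780B (20.8), ZNF507 (19.7), ZNF791 (16.2), ZNF536 (15.9), ZNF574 (6.62), ZNF114 (5.04) and ZNF77 (4.31).

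In unspliced RNA the order was another. ZNF536, a regulator of neuronal differentiation with a gene body of 485 kb, had a mean count of 672 ± 596, followed by ZNF254 with 421 ± 480, ZNF83 with 385 ± 320, ZNF565 with 236 ± 111.3 and ZNF875 with 223 ± 239. Such counts grow with gene length and are not levels per length. Of the 97 members above the limit, 69 overlapped another gene with spliced RNA, and for 25 of these the unspliced count had an r over 0.5 across cells with the spliced RNA of an overlapping gene, the highest r being taken where several overlapped. For ZNF254 the r was 0.881 with the overlapping CTD-2017D11.1 and 0.128 with its own spliced RNA, and for ZNF83 it was 0.871 with CTD-3099C6.13 and 0.505 with its own. The counting was not stated to use strand, and 188 of the 259 members overlapped another gene of the table.

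The 2 sets of cells by number differed in the level of the family. The summed spliced RNA of the 259 members was 2285 ± 439 TPM in the 28 cells numbered up to 65 and 1405 ± 253 TPM in the 27 others (lowest of the first 1730, highest of the second 1877). ZNF83 had a median of 52.6 TPM in the first and 24 in the second, and ZNF581 went the other way with 21.6 and 38.4. With the mean of the set subtracted, the copy-state test described below called 2 members higher at 2 copies and 0 at 1 copy in spliced RNA, in place of 3 and 1.

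RNA of the corepressors with which KRAB zinc finger proteins work was found throughout. All 28 genes of the list, from TRIM28 to the readers and methyltransferases, had spliced RNA in at least 50 of 55 cells. TRIM28 itself had 1134 ± 320 TPM, DNMT1 281 ± 91.4, CBX3 233 ± 82.4 and SETDB1 66 ± 52, each above the highest mean of any member. Of the 20 with a copy state 17 were early-S, whereas ATF7IP, the partner of SETDB1, stood at 1.82%, and SUV39H2 and MPHOSPH8 were mid-S at 42.6 and 74.1%. Of these, 2 could be tested for copy state in spliced RNA and neither passed (MPHOSPH8 36.9 against 30.8 TPM, permutation p = 0.487; SUV39H2 40.9 against 37.4 TPM, p = 0.783).

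Of 18 other zinc finger genes of the chromosome with other kinds of name, 6 were late-S, 7 mid-S and 3 early-S, and 2 had no state. PEG3, ZIM2, ZSCAN1 and ZSCAN5B were listed at 0 spliced RNA in every cell. Of the 4 tested in spliced RNA, ZSCAN18 was higher at 2 copies (median 8.06 against 0 TPM, 40 against 15 cells, permutation p = 0.00734, adjusted p = 0.348) and the other three did not pass. MKI67 and PCNA, marks of cycling cells, had 174 and 333 TPM, BCR and ABL1, which are fused in the parent leukaemia, had 15.3 and 9.01 TPM, and the mean of each of 8 markers of blood cells, fibroblasts and hepatocytes was at most 1.07 TPM.

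Whether a gene gave more RNA once it had been duplicated was asked by comparing, for each gene, the cells in which it was at 2 copies with those in which it was at 1 copy (2-sided Wilcoxon rank-sum test with a permutation p, at most 100000 draws). Both states had to make up at least 20% of the called cells, which left out 173 members, 65 of them nearly always at 2 copies and the others nearly always at 1 copy. Of the 86 remaining, 52 were expressed in spliced RNA and 30 in unspliced RNA, with 17 tested in both.

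In spliced RNA 3 of 52 members, ZNF550, ZNF428 and ZNF45, were higher at 2 copies at a p under 0.05, where 5.91% of all 2455 genes tested were (145 genes). ZNF558 alone was higher at 1 copy, where 2.77% of all genes were (68 genes). In unspliced RNA 1 of 30 members, ZNF549, was higher at 2 copies (3.83% of 3159 genes, 121 genes) and 0 of 30 at 1 copy (3.04%, 96 genes). These counts are near those of all genes. After Benjamini-Hochberg adjustment over all genes tested no gene passed 0.05 in either RNA, the lowest adjusted p of a member being 0.286 in spliced and 0.228 in unspliced RNA.

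The median log2 difference of 2-copy minus 1-copy cells (on log2(value + 1)) was 0.10 over the 52 members in spliced RNA and 0.07 over all genes tested, and 0.06 over the 30 members and 0.06 over all genes in unspliced RNA. The median at 2 copies was the higher one for 30 of 52 members (57.7%, all genes 56.4%) and for 18 of 30 (60%, all genes 51.6%). On this scale a doubled level would be a log2 difference below 1, and further below it the lower the value, so that 1 is no benchmark here. The quartiles of the members were -0.08 and 0.47 in spliced RNA. For the 17 members tested in both, the sign was the same in 12.

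These summaries moved with the cells and the settings used. In spliced RNA the members' median was 0.22 in the first set of cells (all genes 0.03), 0.21 in the second (all genes 0.09) and 0.28 in cells scored 45 to 65% (all genes 0.09), and with pseudocounts of 0.1 and 5 it was 0.24 and 0.06. The median at 2 copies was then the higher one for 75.9% of the 54 members tested in the first set (all genes 52.3%), 68.9% of the 45 in the second (all genes 58.1%) and 67.3% of the 52 with the mean of the set subtracted (all genes 56.7%). In unspliced RNA the median difference was -0.05 in cells scored 45 to 65% (all genes 0.05), and with the mean of the set subtracted 13 of 30 members were higher at 2 copies and 14 at 1 copy. The spliced median was larger within each set than over both, with other members passing the filters in each. The second set had the higher replication scores (56.4 ± 7.07 against 51.1 ± 7.59%, SD) and the lower summed RNA of the members. Copy state and set may thus be confounded over both sets. The share of members at 2 copies was 43.1 ± 12.1% in the first set and 46.0 ± 10.7% in the second (SD over cells). With the mean of the set subtracted, the spliced median of the 52 members was 0.14 (all genes 0.07). Why the medians within each set were larger was not tested.

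**Figure D4:**
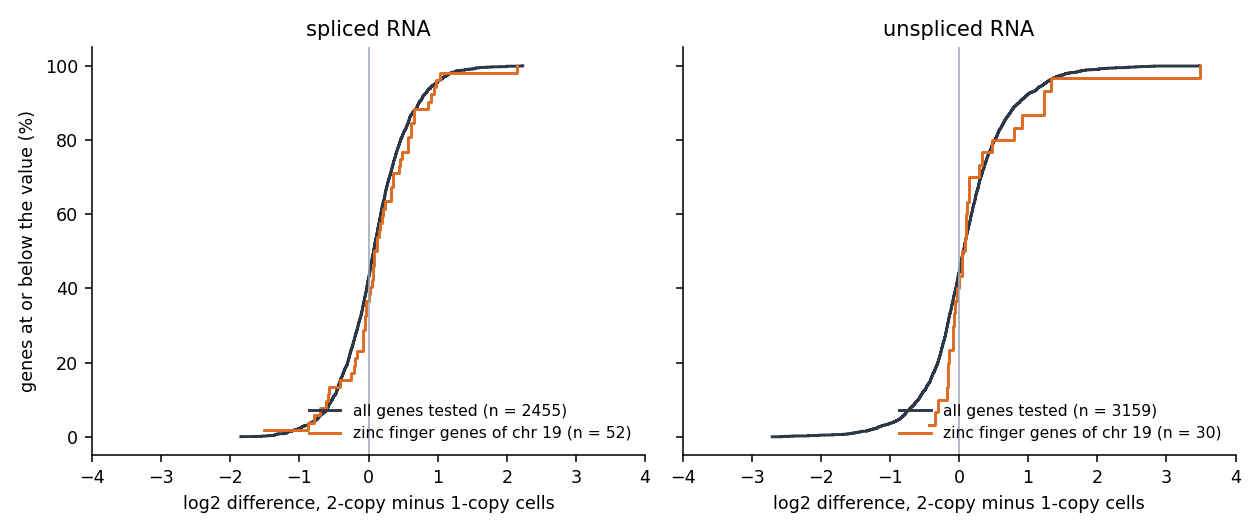
Cumulative share of genes (y axis, %) by their log2 difference between 2-copy and 1-copy cells (x axis) in spliced (left) and unspliced RNA (right), zinc finger genes of chromosome 19 in orange and all genes tested in black. Over both sets of cells together the orange steps follow the black line, with medians of 0.10 and 0.07 on the left and 0.06 and 0.06 on the right.

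ZNF550 had the lowest p in spliced RNA. Its lowest, median and highest values were 0, 22.4 and 92.5 TPM in 12 cells at 2 copies and 0, 0.17 and 32.2 TPM in 43 cells at 1 copy. The groups overlapped, since 2 of the 12 cells were at 0, and 24 of the 43 were above 0. The log2 difference was 2.15 ± 0.77 (SE), with a permutation p of 0.00239. It was in the same direction within each set of cells, with medians of 27.9 against 0.07 TPM in the first and 7.23 against 1.97 TPM in the second. The second set held only 4 cells at 2 copies and was not tested for this gene.

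ZNF549 had the lowest p in unspliced RNA. The estimated counts were 0, 76.2 and 346 (lowest, median, highest) in 12 cells at 2 copies and 0, 0 and 87 in 43 cells at 1 copy. The log2 difference was 3.49 ± 0.98 (SE), with a permutation p of 0.00059. Its spliced RNA did not differ in this way, whose medians in the 2-copy and 1-copy cells were 1.52 and 1.53 TPM.

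The ZNF549 and ZNF550 results were not separate observations. The 2 genes overlap on opposite strands (57527325 to 57557542 and 57535257 to 57559863), their copy states were the same in 55 of 55 cells, and 6279 of 6960 exonic bases of ZNF550 (90.2%) lie in the introns of ZNF549. Across the 55 cells the unspliced count of ZNF549 had r = 0.934 and rho = 0.815 with the spliced RNA of ZNF550, and r = 0.089 and rho = 0.168 with the spliced RNA of ZNF549. The unspliced RNA of ZNF550 was above 0 in 16 cells only and was not tested. Without the strand of the reads, intron reads of ZNF549 and exon reads of ZNF550 cannot be told apart.

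ZNF428 had 0, 8.46 and 49.3 TPM (lowest, median, highest) in 43 cells at 2 copies and 0, 4.72 and 16.0 TPM in 12 cells at 1 copy. The ranges overlapped, and the 2 highest values are taken over unequal numbers of cells. The log2 difference was 0.95 ± 0.40 (SE) and the permutation p 0.0280. The 2-copy cells had a median replication score of 55.7% and the 1-copy cells one of 48.3%, and with the score taken out the p was 0.111. Within the second set it was 0.440.

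ZNF45 had 0, 9.37 and 37.6 TPM in 36 cells at 2 copies and 0, 0 and 27.6 TPM in 18 cells at 1 copy. RNA was seen in 80.6% of the former and 44.4% of the latter. The log2 difference was 1.03 ± 0.55 (SE) and the permutation p 0.0368. This call was lost with the score taken out (p = 0.429), with the mean of the cell subtracted (p = 0.0622), with the mean of the set subtracted (p = 0.159) and within either set (p = 0.0836 and 0.347), and the medians of the scores were 56.4 and 48.3%.

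ZNF558 went the other way. It had 0, 0 and 26.9 TPM in 20 cells at 2 copies and 0, 13.4 and 98.9 TPM in 28 cells at 1 copy, with RNA in 45 and 78.6% of them. The log2 difference was -1.51 ± 0.58 (SE) and the permutation p 0.0153. Of the 20 cells at 2 copies 14 were of the second set, and of the 28 at 1 copy 17 were of the first. The call was lost when the mean of the set was subtracted (p = 0.0648), within either set (p = 0.151 and 0.106) and in cells scored 45 to 65% (p = 0.0627).

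**Figure D5:**
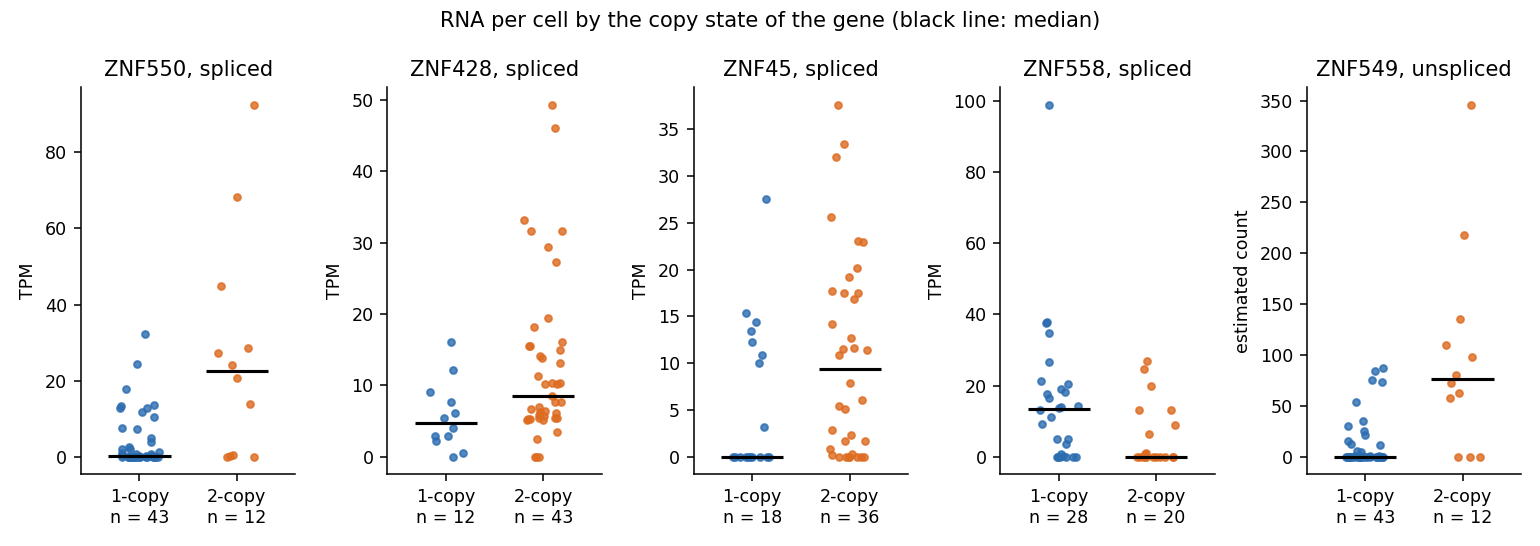
RNA per cell (y axes, TPM, or estimated count for ZNF549) in cells with 1 copy (blue) and 2 copies (orange) of the gene, 1 point per cell and a black line at the median. Medians were 0.17 and 22.4 TPM for ZNF550, 4.72 and 8.46 for ZNF428, 0 and 9.37 for ZNF45, 13.4 and 0 for ZNF558, and counts of 0 and 76.2 for ZNF549; all groups overlap.

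Next in order and not past the threshold was ZNF226 in spliced RNA, with 0.89 TPM at 2 copies and 0 TPM at 1 copy (permutation p = 0.0556). In unspliced RNA the next were ZNF682 (88.2 against 43.4, permutation p = 0.0748), ZNF575 (0.80 against 0, p = 0.0859), ZNF44 (33.4 against 9.20, p = 0.108) and ZNF586 (58.1 against 12.1, p = 0.148), each the median count at 2 copies against that at 1 copy. All 5 had the higher median at 2 copies, but they were picked by their low p. The same held for 57.7% of all members tested in spliced RNA and 60% in unspliced RNA (all genes 56.4 and 51.6%).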

How the data were processed

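Single mid-S HAP1 cells gave a DNA and an RNA library each. The authors mapped DNA reads to hg38 with BWA, whose version the submitters' processing notes give as 0.7.17-r1188, called copy states in 40-kb bins with AneuFinder and assigned them to genes; chromosomes 1, 15 and X were not in the state tables. The deposited states are other codes, 1 for 2-copy, -1 for 1-copy and 0 for no call. RNA reads, brought by the authors to a common number per cell, were mapped with Hisat and counted with featureCounts on GENCODE genes; use of strand was not stated. The deposited spliced values are TPM. The deposited unspliced values, titled TPM, had no common total per cell and were treated as estimated counts (gene-body minus exonic reads, negatives at 0). The highest total, 1353931, is above the common number of reads per cell that the paper states, and this was not resolved. All columns used were matched to labelled cells.

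Here 55 cells scored 40 to 70% entered. Genes were tested if above 0 in over 50% of cells, called in at least 50% and with neither state over 80%, by a Wilcoxon rank-sum test (permutation p, Benjamini-Hochberg over all genes), checked on simulated data. A count model was not used, since each gene divides the cells in its own way. Fingers (2 cysteines and 2 histidines at set distances) and the KRAB pattern came from GENCODE 44 coding sequences. Python 3.11.15, numpy 2.4.6, pandas 2.3.3, scipy 1.17.1 and Biopython 1.88 were used.

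The members, lists and tests were chosen with earlier results of these data known. Members named are those with p under 0.05, the 5 lowest p in each RNA, the ends of the timing range, the 10 highest in spliced and 5 highest in unspliced RNA, the highest of each cluster, those with a textbook role, and, chosen after their values were seen, cluster ends, extremes and neighbours. Cells share 1 experiment, so p-values measure spread between cells.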

Additional observations from a re-analysis of the deposited data

How the results depend on the processing

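The alternatives left the timing result in place, with late-S members the largest class in each of the 6 tried, and moved small counts of calls. The spliced count at 2 copies, 3 in the report, was 5 with genes above 0 in at least 20% of cells, 1 with over 80%, 1 with neither state over 70% and 6 with neither over 90%. The spliced count at 1 copy, 1 in the report, was 0 with over 80% of cells above 0, 2 with neither state over 90%, 0 with the mean of the set of cells by number subtracted and 0 in the second set. The unspliced count at 2 copies, 1 in the report, was 2 with at least 20% of cells above 0, 0 with over 80%, 2 in cells scored 45 to 65%, 0 with neither state over 70%, 3 with neither over 90%, 3 with the mean of the cell subtracted, 0 in the first set and 2 in the second. The unspliced count at 1 copy, 0 in the report, was 2 with neither state over 90%. Timing classes at parts 3 and 6 of 9 left 47 mid-S members, and a gap of 2 Mb gave 8 clusters. The causes were not tested. Of 82 values under alternatives 63 kept to within 1.5 times of a reported count or within the spread of a reported value (for the median log2 difference the median SE of a member, which is wide). Among alternatives that recompute the test (those that change only which genes enter leave a gene's p as it was), ZNF550 stayed under 0.05 in 6 of 6 (p from 0.00252 to 0.0108) and ZNF549 in 4 of 4 (0.00047 to 0.00149), while ZNF428, ZNF558 and ZNF45 stayed in 4 of 6, 3 of 7 and 2 of 7. ZNF549 was not tested within either set or in cells scored 45 to 65%. Its 4 alternatives use the same cells and the same split, so that they are no separate check. Those of ZNF550 use the same cells and split or, in the first set and in cells scored 45 to 65%, a part of these cells. They are no separate check either. No paired analysis was possible because the DNA and RNA libraries that share a number are those of 1 cell, which every test already joins.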

Other observations

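For several members the unspliced count followed the spliced RNA of an overlapping gene across the 55 cells, as it did for ZNF549 and ZNF550. ZNF329 had r = 0.976 with CTD-2623H2.7 and 0.290 with its own spliced RNA, ZNF540 had 0.923 with ZNF571 and -0.01 with its own, ZNF490 had 0.804 with ZNF791 and -0.22 with its own, and ZNF28 had 0.792 with ZNF468 and 0.148 with its own. The median r with the own spliced RNA was 0.183 over the 69. It was 0.128 over the 28 members with no such overlap, leaving out ZNF560, whose spliced RNA was 0 in every cell. A low value with the own spliced RNA was thus not particular to the overlapped genes. These genes were picked for their values.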
